A study of Cynara cardunculus with 12 samples.

Results

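The genes described here are 782 of the 26505 annotated genes of cardoon (*Cynara cardunculus*), those with identifiers from *Ccrd_005895* to *Ccrd_006688*, without *Ccrd_006023*. They were chosen because the medians of their expression in callus lines overexpressing *AtMYB4* lay above WT over a long series of consecutive identifiers, so all comparisons of a line with WT describe the members and test nothing. Of the 782 genes, 95 had no counts in any sample, 577 were tested and 205 were not, and 402 were expressed enough to enter the medians. A gene was tested where at least 1 sample exceeded 10.5 normalized counts, and entered the medians where its mean was also at least 3 on the log2 CPM scale. Normalized counts are read counts scaled for library size by TMM, and CPM express them relative to a fixed library size.

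The samples came from friable callus, a loose undifferentiated tissue, induced from leaves of the cardoon genotype "Spagnolo" and kept in the dark. The 3 groups L1, L18 and L24 (*AtMYB4oe*) were independent transformed lines carrying the *Arabidopsis thaliana* MYB4 coding sequence behind the constitutive *CaMV35S* promoter. L1 and L24 were obtained with the *Agrobacterium* strain AGL1 and L18 with EHA105, and all of them were maintained on phosphinothricin and cefotaxime up to sub-culture XIV. WT was untransformed callus at sub-culture XXII, and no line with an empty vector was included, so the transgene, the selection and the history of the culture cannot be told apart. Each group had 3 replicates of 1 line or of WT, and differences between replicates therefore measure the spread within that line. Whether the replicates of a group were grown as separate cultures is not given in the sources used here. In such bulk RNA, fewer cells of a type and less RNA per cell cannot be told apart.

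MYB4 is an R2R3-type MYB factor known in *Arabidopsis* as a repressor of phenylpropanoid genes. Genes of the cardoon annotation carry running numbers that mostly follow their order on assembled pieces of the genome, called scaffolds. The members lay on 130 scaffolds, each of which held an unbroken block of identifiers, and on 68 of the 71 scaffolds with at least 3 members the numbers followed the position. The order of the scaffolds in the chromosomes is not given in the sources used here, so consecutive numbers on different scaffolds need not be neighbours.

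The counts on genes summed to 12505275 in the shallowest sample and 19509803 in the deepest, with TMM factors from 0.854 to 1.10. The members took 3.389%, 3.424% and 3.425% of all counts in L1, 2.958%, 2.740% and 3.060% in L18 and 3.025%, 3.630% and 3.341% in L24, against 2.519%, 2.583% and 2.634% in WT. Every line sample was above every WT sample, with L24 replicate 2 the highest and L18 replicate 2 the lowest of the lines. The chlorophyll a-b binding protein genes among the members, markers of green leaf tissue, were detected in all groups, at the levels given further on.

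Expression of each member was divided by its WT mean, and the median of these ratios on the log2 scale was taken in each sample. The run median was 0.32, 0.36 and 0.36 in L1, 0.21, 0.14 and 0.24 in L18 and 0.20, 0.38 and 0.26 in L24, against -0.020, -0.018 and 0.0045 in WT. The lines averaged 0.34 ± 0.021, 0.20 ± 0.050 and 0.28 ± 0.092 (SD, n = 3 each), or 1.27, 1.15 and 1.21 times the WT level, while WT averaged -0.011 ± 0.014. All line samples lay above all WT samples, whereas the median over all 13377 genes of this level was between -0.055 and -0.0082 in the line samples. The shift was small next to the spread of single genes, since the middle 50% of the members ranged from 0.0088 to 0.70 in L1, from -0.056 to 0.42 in L18 and from -0.063 to 0.66 in L24. Of the 402 members, 305 (75.9%), 282 (70.1%) and 286 (71.1%) had a mean log2 ratio to WT above 0 in L1, L18 and L24, against 48.3%, 48.8% and 47.3% of all genes.

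The first genes of the run did not share the shift. From *Ccrd_005895* to *Ccrd_005976*, a stretch of 81 identifiers with 28 genes in the medians, expression was lower than in WT, at -0.27 ± 0.18 in L1, -0.88 ± 0.15 in L18 and -0.90 ± 0.29 in L24, against -0.0030 ± 0.040 in WT (SD, n = 3 each). The mean log2 ratio was above 0 for 12 of the 28 genes (42.9%) in L1, 4 (14.3%) in L18 and 2 (7.14%) in L24, against 48.3%, 48.8% and 47.3% of all genes. The 100 genes before *Ccrd_005895* were also low, at -0.94 ± 0.082, -0.83 ± 0.053 and -1.31 ± 0.21 in L1, L18 and L24, and scaffold 339 held genes on both sides of this border. The name of a raised run therefore went against the data over its first identifiers. The ratios changed between *Ccrd_005976* on scaffold 5645 and the next genes, least so in L1. The last 20 genes up to *Ccrd_005976* were at -0.89 ± 0.18 in L18 and -0.76 ± 0.44 in L24, against -0.0011 ± 0.093 in WT. L1 was at -0.074 ± 0.10 there and already overlapped with WT. The next 20 genes were at 0.26 ± 0.035, 0.15 ± 0.034 and 0.26 ± 0.066 in L1, L18 and L24. Over *Ccrd_005977* to *Ccrd_006111*, with 71 genes in the medians, the ratios were 0.44 ± 0.021 in L1, 0.28 ± 0.061 in L18 and 0.34 ± 0.055 in L24, against -0.018 ± 0.047 in WT. The later stretch exceeded the earlier by 0.71 ± 0.17, 1.16 ± 0.086 and 1.25 ± 0.24 in the lines, against -0.014 ± 0.085 in WT. The place of this step was set after the values were seen, and it received no test. Without the first stretch, the 374 remaining members were at 0.37 ± 0.015, 0.22 ± 0.056 and 0.33 ± 0.095 for L1, L18 and L24, against -0.013 ± 0.0091 in WT.

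**Figure D1:**
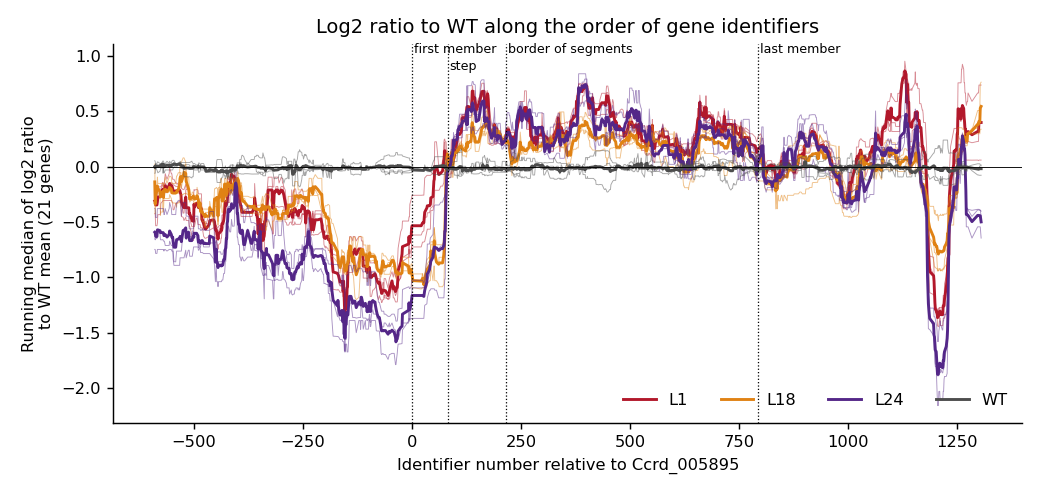
Running median over 21 genes of the log2 ratio to the WT mean, by identifier number relative to *Ccrd_005895*, with thin lines for the 12 samples and thick lines for the mean of each group. At the first member L18 and L24 lie near -1 and L1 nearer to 0, and the lines then stay mostly above 0 from the step to the last member, and return to WT there.

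At the other end the shift ended close to the last member, but some later stretches were raised again. The last 20 genes up to *Ccrd_006688* were at 0.26 ± 0.11 (L1), 0.17 ± 0.15 (L18) and 0.21 ± 0.24 (L24), against -0.025 ± 0.077 in WT. The next 20 genes were at -0.020 ± 0.055, -0.17 ± 0.034 and -0.16 ± 0.056 in L1, L18 and L24, against -0.013 ± 0.044 in WT, and the next 100 at 0.049 ± 0.051, -0.017 ± 0.19 and -0.018 ± 0.11 (SD, n = 3 each). In bins of 50 identifiers, 006795 to 006844 were at 0.24, 0.12 and 0.24 in L1, L18 and L24, and 006845 to 006894 at -0.17, -0.12 and -0.22. Further on, 006995 to 007044 stood at 0.69, 0.050 and 0.33, where L18 overlapped with WT, and 007095 to 007144 at -1.03, -0.70 and -1.62. All line samples were again above all WT samples in 007145 to 007194 (0.48, 0.23 and 0.17) and in 007345 to 007394 (0.51, 0.17 and 0.26). Within the run, 006495 to 006544 reached only 0.14, 0.028 and 0.0485. *Ccrd_006688* itself differed little from WT, with log2 fold changes of 0.17 ± 0.20 for L1, -0.12 ± 0.20 for L18 and 0.26 ± 0.20 for L24 (± SE).

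The run was divided into the segments *Ccrd_005895* to *Ccrd_006111*, with 214 genes, and *Ccrd_006112* to *Ccrd_006688*, with 568. Medians of the second segment were 0.35 ± 0.022, 0.21 ± 0.058 and 0.32 ± 0.11 for L1, L18 and L24, and those of the first 0.29 ± 0.070, 0.14 ± 0.035 and 0.19 ± 0.058. The second exceeded the first by 0.062 ± 0.052, 0.069 ± 0.062 and 0.13 ± 0.057, against 0.015 ± 0.029 in WT. Without WT replicate 1 the differences were 0.020 in L1, 0.025 in L18 and 0.094 in L24. This order depended on the lowered stretch at the start. Against *Ccrd_005977* to *Ccrd_006111* alone, the second segment was lower by 0.085 ± 0.039 in L1 and by 0.068 ± 0.0040 in L18, while L24 differed by -0.021 ± 0.054 and WT by 0.011 ± 0.061. The border itself fell within scaffold 202, which carried *Ccrd_006089* to *Ccrd_006120* and had medians of 0.24 ± 0.035, 0.24 ± 0.033 and 0.19 ± 0.070 in L1, L18 and L24, against -0.031 ± 0.012 in WT.

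**Figure D2:**
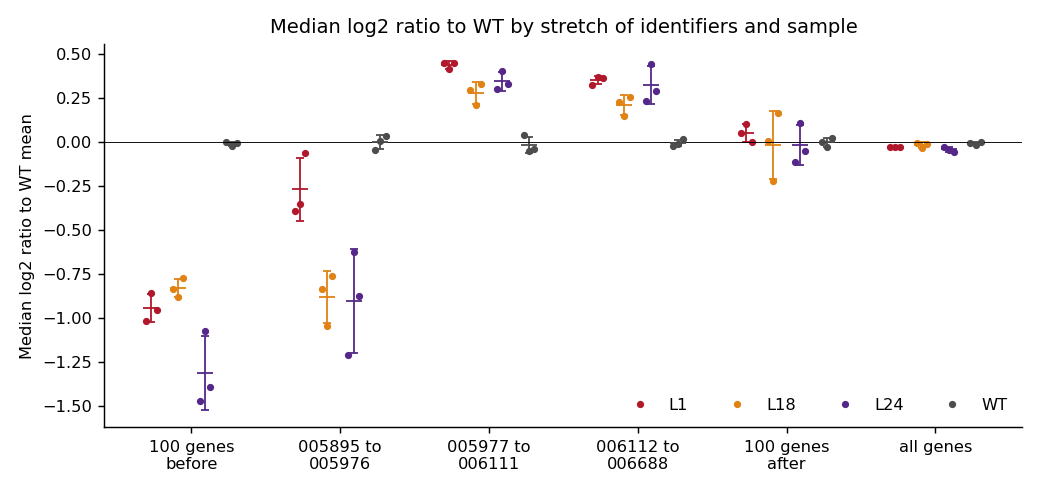
Median log2 ratio to the WT mean in each of the 12 samples (points) with the mean and SD of the 3 replicates (bars), for the 100 genes before the run, its 3 stretches, the 100 genes after it and all genes of the same level. In the stretch *Ccrd_005895* to *Ccrd_005976* the line means are -0.27, -0.88 and -0.90, and in the stretches after it they lie from 0.21 to 0.44.

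The shift was found on most scaffolds. On the 24 scaffolds with at least 5 members in the medians, the scaffold medians ranged from -0.021 to 0.71 in L1, where 23 were above 0. They ranged from -0.083 to 0.47 in L18 and from -0.16 to 0.70 in L24, each with 22 above 0. Counting also scaffold 339, which holds genes from before the run, all lines were above 0 on 20 of 25 scaffolds (80%), against 188 of all 730 such scaffolds (25.8%). All 9 line samples exceeded all WT samples on 11 of 25 (44%), against 62 of 730 (8.49%). In bins of 50 identifiers the same held for 11 of 16 bins (68.8%), against 46 of 534 (8.61%).

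Scaffold 1031 had the highest medians, 0.71 ± 0.079 in L1, 0.47 ± 0.020 in L18 and 0.70 ± 0.027 in L24, against -0.046 ± 0.14 in WT, over 6 of its 10 genes. Scaffold 74 followed in L1, with 0.65 ± 0.073, 0.39 ± 0.10 and 0.43 ± 0.10 in L1, L18 and L24, against 0.0099 ± 0.084 in WT, and scaffold 198 had 0.61 ± 0.074, 0.31 ± 0.13 and 0.64 ± 0.11, against -0.0039 ± 0.059 in WT. The shift was not seen on scaffolds 1785 and 284, whose line samples overlapped with WT. Scaffold 1785 was at 0.036 ± 0.15 in L1, -0.083 ± 0.11 in L18 and -0.028 ± 0.18 in L24, against -0.020 ± 0.078 in WT. Scaffold 284 was at 0.014 ± 0.12, 0.087 ± 0.18 and -0.16 ± 0.24 in L1, L18 and L24, against -0.026 ± 0.041 in WT. Scaffold 736, just after the step, was at -0.021 ± 0.084 in L1, 0.12 ± 0.10 in L18 and 0.27 ± 0.14 in L24, against -0.0027 ± 0.15 in WT. Lines overlapped with WT on other scaffolds too. Scaffold 681 was at 0.11 ± 0.15 in L1, 0.34 ± 0.31 in L18 and 0.030 ± 0.22 in L24, against -0.015 ± 0.21 in WT, and all lines overlapped. On scaffold 163, L18 was at -0.0020 ± 0.21, against -0.019 ± 0.086 in WT.

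**Figure D3:**
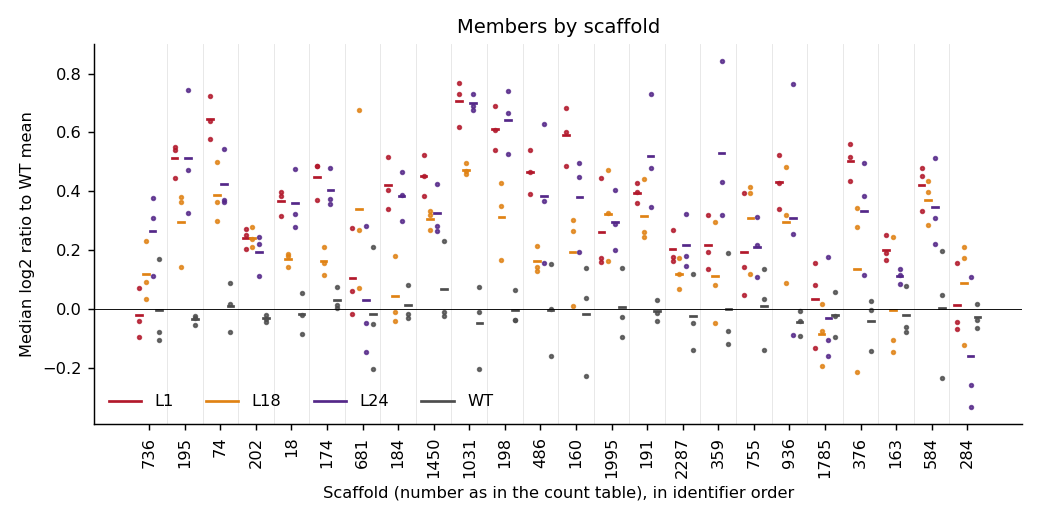
Median log2 ratio to the WT mean on the 24 scaffolds with at least 5 members in the medians, in identifier order, with a point for each sample and a bar for the mean of 3 replicates. Scaffold 1031 stands highest in all lines (0.71, 0.47 and 0.70), and scaffolds 1785 and 284 lie at the level of WT.

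By edgeR's quasi-likelihood test at a Benjamini-Hochberg adjusted p of 0.05 over all 20024 genes tested, 227 of the 577 tested members (39.3%) were higher and 41 (7.11%) lower in L1 than in WT, against 19.3% and 20.4% of all genes. In L18, 107 (18.5%) were higher and 53 (9.19%) lower, against 12.5% and 12.8%. In L24, 200 (34.7%) were higher and 67 (11.6%) lower, against 19.3% and 20.7%. In all lines at once 56 members (9.71%) were higher and 11 (1.91%) lower, against 5.01% and 6.27% of all genes. The count of higher members in L18 dropped to 66 when WT replicate 2 was left out. Of the lower members, 10 of 41 in L1, 22 of 53 in L18 and 23 of 67 in L24 came from the 45 tested genes of the first stretch. These were 22.2%, 48.9% and 51.1% of the 45, against 20.4%, 12.8% and 20.7% of all genes, so in L1 the share was close to that of all genes. Higher in this stretch were 5 (11.1%), 1 (2.22%) and 0 genes in L1, L18 and L24, against 19.3%, 12.5% and 19.3%.

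Among the 402 members in the medians, all replicates of L1 exceeded all of WT for 202 genes (50.2%), against 26% of all genes, and those of L18 for 123 (30.6%), against 19.4%. In L24 this held for 173 genes (43%), against 23.9%. The opposite order, every line replicate below every WT replicate, was found for 43 genes in L1 (10.7%, against 29.6%), 53 in L18 (13.2%, against 21.4%) and 52 in L24 (12.9%, against 28.2%). These shares describe how the run was chosen and are not evidence for it.

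**Figure D4:**
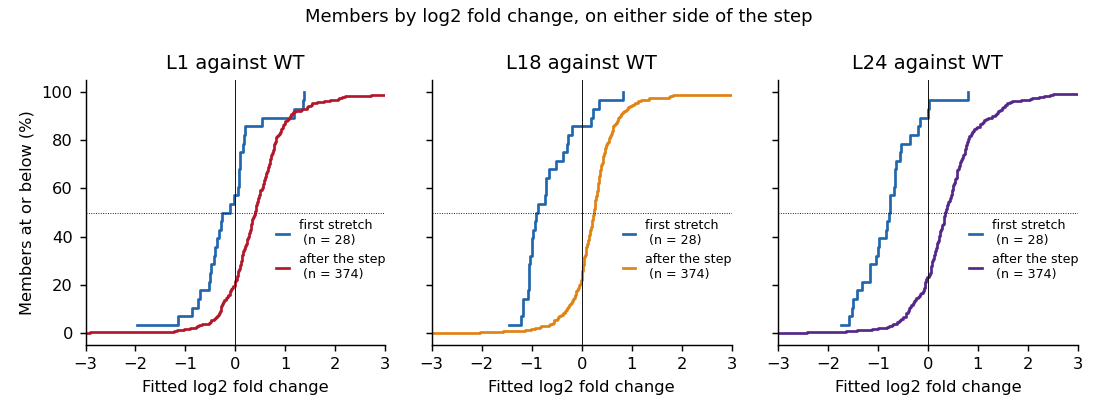
Cumulative share of the members in the medians by fitted log2 fold change to WT, for the 28 genes from *Ccrd_005895* to *Ccrd_005976* and the 374 genes after them; a few members lie beyond the axis. The later genes are displaced to the right as a whole in every line, and the earlier genes to the left, least so in L1.

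The lines also differed from one another. The run median of L1 exceeded that of L18 by 0.14 with no overlap of replicates, whereas L24 and L18 differed by 0.080 and L1 and L24 by 0.064, with overlapping replicates in both pairs. In the first stretch L1 was above L18 by 0.61 and above L24 by 0.63, again with no overlap, and L24 and L18 differed by -0.023. Between lines, 131 members (22.7%) were higher and 61 (10.6%) lower in L1 than in L18, against 16.1% and 16.9% of all genes. In L24 against L18, 100 (17.3%) were higher and 61 (10.6%) lower, against 14.3% and 16.4%. In L1 against L24, 74 (12.8%) were higher and 37 (6.41%) lower, against 10.8% and 9.73%, and the 74 became 47 without L1 replicate 3 and 48 without L24 replicate 3. Members called on opposite sides of WT numbered 9 for L1 and L18, 7 for L24 and L18 and 1 for L1 and L24, against 1.73%, 1.27% and 0.859% of all genes, and nothing about the run is read from these counts.

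The ratios to WT varied with gene length, among the members as over all genes. Among the 374 members after the step, those longer than the median exon length of 1637 bases were at 0.51, 0.32 and 0.46 for L1, L18 and L24, and the shorter ones at 0.25, 0.13 and 0.22. The same order was seen over all genes, with 0.085, 0.063 and 0.063 in the longer and -0.14, -0.099 and -0.14 in the shorter genes. By expression level the members differed less, with 0.32, 0.21 and 0.31 above the median level and 0.44, 0.23 and 0.39 below it. Here too all genes had the same order, with -0.079, -0.042 and -0.092 above their median level and 0.039, 0.016 and 0.0165 below it. The part of gene length in the values of single scaffolds was not tested.

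To see which members departed from their surroundings, each was compared with the running median log2 fold change of the 100 genes around it. Against this level, 108 members were higher and 80 lower in L1, 57 and 64 in L18 and 103 and 89 in L24. Over all genes the same rule gave 17.4% and 17.1% in L1, 11.1% and 10.1% in L18 and 18.5% and 16% in L24. Without L1 replicate 1 the 80 became 52, and without L18 replicate 3 the 64 became 40. Near the step the surrounding genes included both lowered and raised ones. From *Ccrd_005977* to *Ccrd_006111*, 26.2%, 14.6% and 24.3% were higher in L1, L18 and L24, against 18.7%, 9.88% and 17.9% of all tested members. The lower ones there were 11.7%, 5.83% and 8.74%, against 13.9%, 11.1% and 15.4%. In all lines at once 19 members lay above and 18 below, against 4.2% and 4.31% of all genes, and 287 of the 577 departed in no line, against 47.5%. Descriptions were known for 80 members, nearly all from a list of genes that the study had called in L1, so that groups formed from them favour genes that differed in L1.

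Both chlorophyll a-b binding protein genes, which encode light-harvesting antenna proteins of chloroplasts, were among the members furthest above WT. *Ccrd_006280* (scaffold 1450, 115271 to 115816, minus strand) had 756, 744 and 662 normalized counts in L1, 1271, 1132 and 1190.4 in L18 and 91.5, 95.3 and 135 in L24, against 20.8, 9.86 and 10.7 in WT. Its log2 fold changes were 5.73 ± 0.25 for L1, 6.46 ± 0.25 for L18 and 2.98 ± 0.26 for L24 (± SE), of which 5.26, 6.20 and 2.60 remained beyond the running median. No line sample overlapped with WT, and L24 was the lowest of the lines, by -3.48 ± 0.20 against L18. *Ccrd_006285* on scaffold 1031 had 1461, 1292 and 1785 in L1, 1107, 848 and 838 in L18 and 362, 263 and 401 in L24, against 153, 81.9 and 49.2 in WT, with log2 fold changes of 4.01 ± 0.32 for L1, 3.31 ± 0.32 for L18 and 1.86 ± 0.31 for L24. Here too L24 was the line nearest to WT, without reaching it.

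Ferrochelatase inserts iron into protoporphyrin, the last step of heme synthesis. Its gene *Ccrd_006421* (scaffold 359, 32555 to 41853, minus strand) had 2080.1, 2258 and 3251 normalized counts in L1, 1061, 1164 and 1320.1 in L18 and 1091, 1558 and 1201 in L24, against 538, 617 and 599 in WT, and all line samples were above all WT samples. The log2 fold changes were 2.11 ± 0.19 for L1, 1.01 ± 0.19 for L18 and 1.13 ± 0.19 for L24, and L1 exceeded L18 by 1.10 ± 0.18 and L24 by 0.98 ± 0.18.

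Ubiquinol oxidases, or alternative oxidases, transfer electrons from ubiquinol to oxygen in plant mitochondria, bypassing later complexes of the respiratory chain. The pair lay next to each other on scaffold 2135, with *Ccrd_006499* from 24676 to 27816 and *Ccrd_006500* from 37172 to 38995, both on the minus strand. *Ccrd_006499* had 11861, 9857 and 9986 normalized counts in L1, 4969.8, 4476 and 4049 in L18 and 16168, 17041 and 14648 in L24, against 3866, 4257 and 3563 in WT. L1 and L24 were well above WT, and L18 overlapped with it, with log2 fold changes of 1.44 ± 0.15 for L1, 0.21 ± 0.15 for L18 and 2.03 ± 0.15 for L24. *Ccrd_006500* had 1364, 1364 and 1745 in L1, 314, 236 and 195 in L18 and 1878, 2584 and 1699 in L24, against 435, 451 and 426 in WT, and here L18 lay below WT while L1 and L24 lay above it (1.77 ± 0.20 for L1, -0.82 ± 0.20 for L18 and 2.23 ± 0.20 for L24). The other members of this 5-gene scaffold included the protein kinase gene *Ccrd_006497*, which was above WT in every sample of every line, with log2 fold changes of 2.07 ± 0.23 for L1, 1.75 ± 0.23 for L18 and 1.40 ± 0.23 for L24, and the pectin acetylesterase gene *Ccrd_006501*, at 3 counts or fewer in every WT sample.

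**Figure D5:**
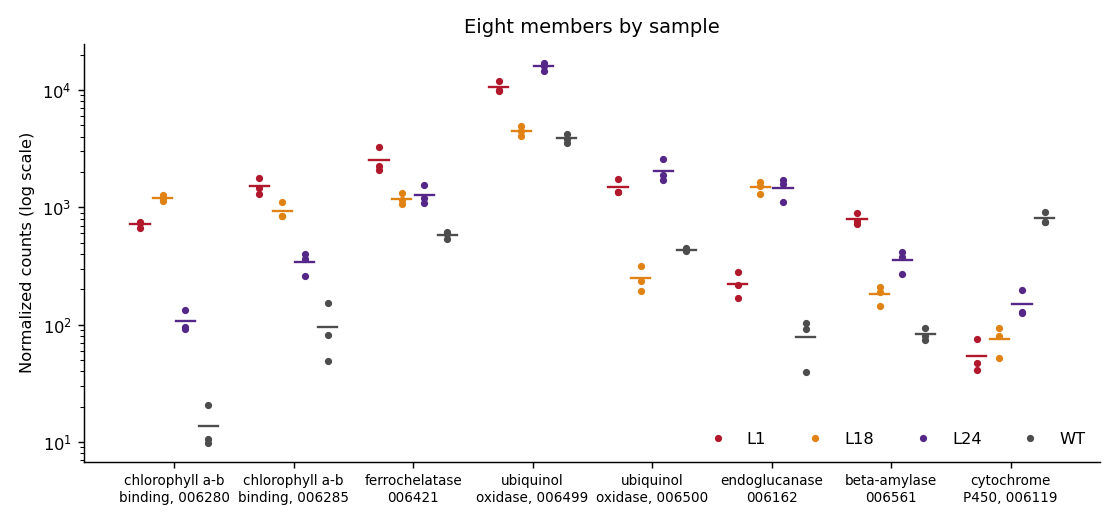
Normalized counts on a log scale of 8 members in the 12 samples (points), with bars for the mean of 3 replicates of L1, L18, L24 and WT. Chlorophyll a-b binding genes are lowest in WT, ubiquinol oxidase genes are above WT in L1 and L24 and not in L18, and the cytochrome P450 gene *Ccrd_006119* is below WT in all lines.

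Cytochromes P450 are heme enzymes that oxidize many plant metabolites. Of the 6 genes so described, 3 were higher and 1 lower in L1, 3 higher and 2 lower in L18, and 3 higher and 2 lower in L24, beside the shares of all genes given above (19.3% and 20.4%, 12.5% and 12.8%, 19.3% and 20.7%). Their descriptions came from the list of genes called in L1, so nothing is read from these counts. *Ccrd_006052*, *Ccrd_006054* and *Ccrd_006055* lay near each other on scaffold 74 but differed in their order among the lines. *Ccrd_006055* (173462 to 190590, plus strand) had 69.1, 101.1 and 88.9 normalized counts in L1, 317, 323 and 165 in L18 and 482, 1027 and 465 in L24, against 22.1, 26.6 and 40.7 in WT, highest in L24, with log2 fold changes of 1.53 ± 0.39 for L1, 3.16 ± 0.38 for L18 and 4.45 ± 0.39 for L24. *Ccrd_006054* (159195 to 160391, plus strand) followed the same order, averaging 16.7 ± 6.12 in L1, 62.4 ± 30.4 in L18 and 126 ± 48.0 in L24, against 5.26 ± 4.21 in WT, its L1 samples all being above WT. *Ccrd_006052* (138908 to 140593, minus strand) was instead highest in L1, with 776, 933 and 1199.7 normalized counts, and L18 and L24 overlapped with WT at 379, 455 and 519.5 and 333, 388 and 382, against 271, 321 and 463 in WT.

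*Ccrd_006119* (scaffold 202, 3651 to 5225, minus strand) went the other way and was the member in the medians furthest below WT in L1 and L18. It had 40.9, 46.9 and 75.1 normalized counts in L1, 94.2, 79.9 and 52.0 in L18 and 196, 129.6 and 126 in L24, against 916, 752 and 757 in WT, with log2 fold changes of -3.92 ± 0.28 for L1, -3.42 ± 0.27 for L18 and -2.42 ± 0.26 for L24 and no overlap of any line with WT. Of the remaining P450 genes, *Ccrd_006310* averaged 83.1 ± 32.5 in L1, 9.64 ± 5.53 in L18 and 27.5 ± 4.89 in L24, against 2.08 ± 1.62 in WT (SD, n = 3 each), the most in L1. *Ccrd_006449* had 149 ± 45.5 in L1, 21.1 ± 23.8 in L18 and 14.1 ± 0.776 in L24, against 64.6 ± 18.7 in WT, with means above WT in L1 and below it in L18 and L24. The difference of *Ccrd_006449* in L1 was not called, and its call in L18 was lost under 12 of 22 alternative settings.

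Genes for enzymes of the cell wall and of sugar polymers were found on several scaffolds. The endoglucanase gene *Ccrd_006162* (scaffold 18, 318555 to 323838, minus strand), whose product cleaves glucan chains, had 216, 279.5 and 170.3 normalized counts in L1, 1314, 1661 and 1512 in L18 and 1715, 1576 and 1104 in L24, against 104, 92.7 and 39.6 in WT. L24 and L18 overlapped, with a difference of -0.03 ± 0.26 (± SE) on the log2 scale, and L1 stood between them and WT, with fold changes of 1.51 ± 0.30 for L1, 4.25 ± 0.31 for L18 and 4.22 ± 0.31 for L24. The beta-amylase gene *Ccrd_006561* (scaffold 1433, 47375 to 56375, plus strand), which releases maltose from starch, was highest in L1, at 773, 724 and 902 in L1, 190.2, 145 and 208 in L18 and 268, 375 and 418 in L24, against 80.9, 93.7 and 73.8 in WT. Its log2 fold changes were 3.27 ± 0.21 for L1, 1.13 ± 0.21 for L18 and 2.09 ± 0.21 for L24. The gene for an O-fucosyltransferase family protein, *Ccrd_006024* on scaffold 195, overlapped among the lines and was above WT in all of them, with 110.0, 135 and 76.4 normalized counts in L1, 64.6, 113 and 112 in L18 and 80.3, 113 and 106 in L24, against 0, 7.89 and 2.14 in WT. A callose synthase gene, *Ccrd_005904*, was seen almost in L1 alone, with 64.5, 52.0 and 72.6 in L1, 0.897, 3.16 and 3.79 in L18 and 2.03, 5.54 and 2.12 in L24, against 0, 1.97 and 2.14 in WT, at least 17.1-fold higher in L1 than the highest WT level that 3 counts per library allow. A cellulose synthase gene, *Ccrd_006188*, had 7.27, 7.22 and 26.3 in L1, 33.2, 8.41 and 17.0 in L18 and 2.03, 1.11 and 0 in L24, against 0, 0 and 1.07 in WT.

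*Ccrd_006619* (scaffold 163, 216624 to 222610, plus strand), which encodes a UDP-glycosyltransferase, an enzyme that attaches sugars to small molecules, had 963, 1151 and 1351 normalized counts in L1, 755, 471 and 539 in L18 and 1076, 1138 and 1026 in L24, against 196, 209 and 209.7 in WT, with log2 fold changes of 2.49 ± 0.19 for L1, 1.52 ± 0.18 for L18 and 2.40 ± 0.18 for L24. The Fe2OG dioxygenase gene *Ccrd_006075* on scaffold 74 averaged 1299.9 ± 180.1 in L1, 590.1 ± 233 in L18 and 1421 ± 674 in L24, against 285 ± 49.2 in WT (SD, n = 3 each), with every line sample above WT. *Ccrd_006074* beside it had 30.1 ± 7.42 in L1, 30.9 ± 4.26 in L18 and 11.3 ± 1.16 in L24, against 12.8 ± 7.75 in WT, above WT in L1 and L18 and overlapping with it in L24. Of 22 alternative settings, 15 lost the call of *Ccrd_006074* in L18 and 5 that in L1. The aquaporin-like gene *Ccrd_006019* on scaffold 195, of a family that forms water channels, had 146, 246 and 115 normalized counts in L1, 525, 1741 and 1160.2 in L18 and 182, 116 and 122 in L24, against 121, 30.6 and 27.8 in WT. It was highest in L18 and uneven in WT, where replicate 1 was the highest and overlapped with L1 and L24. The CASP-like gene *Ccrd_006585* had 1021, 598 and 1676 in L1, 105, 79.9 and 151 in L18 and 347, 492 and 397 in L24, against 84.6, 87.8 and 54.6 in WT, high in L1, intermediate in L24 and overlapping with WT in L18.

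Zinc finger, NAC and phosphatase genes, which serve regulation, differed in which lines stood apart from WT. The CCCH zinc finger gene *Ccrd_006515* (scaffold 1402, 85899 to 86882, plus strand) had 5145, 4059 and 11141 normalized counts in L1, 942, 550.1 and 932 in L18 and 4405, 3441 and 3436 in L24, against 2082, 1219 and 1354 in WT, above WT in L1 and L24 and below it in L18, with log2 fold changes of 2.13 ± 0.34 for L1, -0.94 ± 0.34 for L18 and 1.28 ± 0.34 for L24. L1 replicate 3 was far above every other sample, and the difference in L18 was not called. The LSD1-type zinc finger gene *Ccrd_006263* had 222 ± 94.1 in L1, 7.76 ± 4.90 in L18 and 114 ± 36.6 in L24, against 4.40 ± 2.05 in WT (SD, n = 3 each), near WT in L18 and far above it in L1 and L24. Of the NAC genes, a plant family of transcription factors, *Ccrd_006082* had 17.3, 32.5 and 6.26 normalized counts in L1, 102, 158 and 45.4 in L18 and 7.12, 17.7 and 24.4 in L24, against 143, 164 and 245 in WT, while *Ccrd_006547* was at 3 counts or fewer in WT and L18 and had means of 10.0 ± 3.69 in L1 and 22.6 ± 13.8 in L24. The protein phosphatase (PPM-type) gene *Ccrd_006279*, next to the chlorophyll a-b binding gene on scaffold 1450, had 5862, 5612 and 6645 in L1, 2894, 2468 and 3201 in L18 and 4424, 6240.1 and 4929.8 in L24, against 1404, 1654 and 1824 in WT, above WT in every line sample, with log2 fold changes of 1.89 ± 0.17 for L1, 0.81 ± 0.17 for L18 and 1.68 ± 0.17 for L24.

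A list of genes that the study had chosen on these samples as common to all lines and annotated with gene ontology terms held 30 members. All were tested, and 26 were higher and 3 lower in L1, 24 and 3 in L18 and 26 and 3 in L24, with median log2 fold changes of 0.94, 0.80 and 1.04, against 0.021, 0.0080 and 0.011 over all genes tested. Since the study selected the list for this, the counts are not independent evidence of its direction. Several of its members serve general functions of the cell. *Ccrd_006552*, annotated with lysine-tRNA ligase activity, which charges tRNA for translation, had log2 fold changes of 0.58 ± 0.15 for L1, 0.60 ± 0.15 for L18 and 0.71 ± 0.15 for L24, of which 0.25, 0.41 and 0.41 remained beyond the running median. *Ccrd_006220*, annotated as a structural part of the nuclear pore, had 0.66 ± 0.16 for L1, 0.45 ± 0.16 for L18 and 0.81 ± 0.16 for L24, and *Ccrd_006396*, annotated with peptidyl-arginine methylation, 0.38 ± 0.12 for L1, 0.54 ± 0.12 for L18 and 0.51 ± 0.12 for L24. *Ccrd_006647*, annotated with the Ku70:Ku80 complex, which binds broken DNA ends, had means of 599 ± 104 normalized counts in L1, 506 ± 134 in L18 and 915 ± 172 in L24, against 328 ± 20.5 in WT, highest in L24. *Ccrd_006668*, annotated with response to wounding and inhibition of serine endopeptidases, had 808 ± 323 in L1, 1559 ± 109 in L18 and 1185 ± 248 in L24, against 458 ± 107 in WT, highest in L18.

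The 3 members of that list below WT all lay in the first stretch. *Ccrd_005895*, the first gene of the run, annotated with iron homeostasis, had 224, 204 and 342 normalized counts in L1, 176, 232 and 184 in L18 and 157, 167 and 145 in L24, against 456, 385 and 409.7 in WT, with log2 fold changes of -0.70 ± 0.20 for L1, -1.08 ± 0.20 for L18 and -1.41 ± 0.20 for L24. *Ccrd_005929*, annotated with the chloroplast stroma, had -0.88 ± 0.17 for L1, -0.74 ± 0.17 for L18 and -1.53 ± 0.18 for L24, and *Ccrd_005973* had -1.15 ± 0.17 for L1, -1.46 ± 0.17 for L18 and -1.74 ± 0.17 for L24, with all line samples of both below all WT samples. *Ccrd_005976*, the last gene before the step, had 297, 242 and 150.3 in L1, 507, 390.2 and 457 in L18 and 190.2, 532 and 354 in L24, against 630.4, 942 and 1126 in WT, again with no overlap between any line and WT. The acyltransferase gene *Ccrd_005945* in the same stretch, of a family that moves acyl groups between lipids, differed from these, with 3342, 3901 and 4696 in L1, 926, 622 and 985 in L18 and 1228, 2111 and 1963 in L24, against 1629, 1932 and 1734 in WT. It was above WT in L1, below it in L18 and overlapped with it in L24.

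After the step, some members went against the shift or differed by line. *Ccrd_006103* on scaffold 202, described as initiation factor 2B-related, had 71.8, 64.3 and 38.8 normalized counts in L1, 415, 559.6 and 384 in L18 and 195, 157 and 213 in L24, against 418, 503 and 409.7 in WT, lowest in L1, intermediate in L24 and overlapping with WT in L18, with log2 fold changes of -2.91 ± 0.23 for L1, 0.03 ± 0.21 for L18 and -1.23 ± 0.22 for L24. *Ccrd_006253*, which has no description, was below WT in L24 and overlapped with it in the other lines, with 592, 543 and 467 in L1, 587, 471 and 315 in L18 and 49.8, 76.4 and 64.6 in L24, against 885, 596 and 429 in WT. *Ccrd_006620* was at 161 ± 39.2 in L1, 168 ± 49.7 in L18 and 155 ± 53.2 in L24, against 337 ± 73.2 in WT (SD, n = 3 each), with every line sample below every WT sample. *Ccrd_006432*, also without description, had 809.7, 757 and 783 in L1, 204, 342 and 255 in L18 and 4585, 4158 and 4094 in L24, against 823, 588 and 846 in WT, highest in L24 and lowest in L18, with L1 overlapping with WT. *Ccrd_006057* on scaffold 74 had 681, 423 and 1429 in L1, 71.8, 79.9 and 86.1 in L18 and 769.8, 707 and 543 in L24, against 98.1, 62.1 and 68.5 in WT, above WT in L1 and L24 and overlapping with it in L18.

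The members with the most RNA per length were not those with the largest shift. By mean FPKM, the authors' counts scaled by exon length and library size, the first was *Ccrd_006394*, at 1345 ± 367 in L1, 1312 ± 191 in L18 and 683 ± 119 in L24, against 1034 ± 395 in WT (SD, n = 3 each). *Ccrd_006182* had 765 ± 32.9, 546 ± 62.9 and 932 ± 106 FPKM in L1, L18 and L24, against 879 ± 134 in WT, lowest in L18. *Ccrd_006652* had means below WT in all lines, at 367 ± 32.1, 421 ± 63.3 and 423 ± 24.6, against 582 ± 73.2 in WT, with L18 overlapping in normalized counts. Among the 10 most abundant members, only the phosphatase gene *Ccrd_006279* was more than 1 log2 unit above WT in any line, with 561 ± 13.3, 263 ± 45.6 and 506 ± 109 FPKM, against 143 ± 29.8 in WT. The median FPKM in WT was 15.7 over the members in the medians and 18.2 over all such genes.

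At the other extreme, 24 tested members were at or under 3 counts in every WT replicate, and none had so few in every line. Of these 24, 16 were called higher in L1, 9 in L18 and 10 in L24, beside 61.5%, 34.4% and 47.9% of all 564 tested genes at this floor. Calls in all lines were made for 2 (15.6% of the 564) and calls in none for 3 (15.8%). They could be tested only because a line was higher, so the counts are close to fixed by the filter. *Ccrd_006037*, a short gene on scaffold 195, had 1389, 1238 and 7367 normalized counts in L1, 69.1, 37.9 and 35.01 in L18 and 0, 11.1 and 27.5 in L24, against 3.68, 1.97 and 2.14 in WT. Its L1 mean rested on replicate 3, and all L1 samples were above all others. *Ccrd_006684*, which encodes a Plus3 domain protein, had 55.4, 38.3 and 42.6 in L1, 4.49, 4.21 and 2.84 in L18 and 29.5, 123 and 41.3 in L24, against 1.23, 0 and 2.14 in WT, in L1 at least 12.35-fold and in L24 at least 17.55-fold higher than the 3 counts per library that bound its WT level. Without its replicate 2 the bound in L24 was 9.62-fold. *Ccrd_006327*, with an exonuclease domain, was at 0 in every sample of L18 and WT and had 15.4, 18.1 and 58.9 in L1 and 30.5, 7.75 and 14.8 in L24. *Ccrd_006605* was seen mainly in L18, with 70.9, 41.0 and 5.68 normalized counts, and was at 0 in all L1 samples.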

How the data were processed

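RNA of 12 callus samples was sequenced by the authors. Per their methods, reads were trimmed with BBDuk and aligned with STAR to the CcrdV1 genome. The authors deposited raw read counts per gene, with scaffold, position and exon length, and FPKM values computed from them. The read counter and whether it used strand are not given in the sources used here, so overlapping or near-identical genes may share reads. Reads of the transgene were not analysed here.

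Counts were scaled by TMM and tested with edgeR 4.0.16 (quasi-likelihood test, 1 fit of all groups, Benjamini-Hochberg adjustment at 0.05). The low-count threshold of 10.5 normalized counts, to be passed by at least 1 sample, had the highest Jaccard index between replicates (0.961). Ratios used CPM with a pseudocount of 0.5. The running median was taken over the 100 nearest genes at 3 or more on the log2 CPM scale, without the gene itself. Fold changes are given with an approximate SE, the absolute log2 fold change divided by the square root of the F statistic of edgeR's test. Any gene with at most 3 counts in each WT replicate was given a lower bound per library, which covers counting error only. Alternatives were other scalings, filters, pseudocounts and windows, limma 3.58.1, DESeq2 1.42.0, a replicate block and leaving out each replicate. The labels do not say that replicate numbers mark a shared origin, and only for L24 with WT did all same-numbered samples deviate together (correlations above 0.1).

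Members and lists were chosen with earlier results of these data known. Genes named were those on the study's list, families, extremes of fold change and level, genes at borders and genes near 0 in WT. Descriptions came from the study's supplement and symbols were not used. Scripts were tested on simulated data.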

Additional observations from a re-analysis of the deposited data

Results flagged for a closer look

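Members were singled out where the replicates of a pair of lines were called on opposite sides of WT. This was found for 9 members between L1 and L18, 7 between L24 and L18 and 1 between L1 and L24, 12 different genes in all, beside 1.73%, 1.27% and 0.859% of all 20024 genes tested, and nothing about the run is read from these counts. Those that are not described above were chosen after their values were seen, and the comparisons of 2 lines with WT share the WT samples. Values are differences between lines on the log2 scale from edgeR's fit, and their causes were not tested. Some of the calls against WT behind these pairs were lost under other processing. Of 22 alternatives, 16 lost the call of *Ccrd_006275* in L1, 13 that of *Ccrd_006121* in L18 and 6 that of *Ccrd_006330* in L18. The calls of *Ccrd_005993* in L18 and of *Ccrd_006612* in L24 were each lost in 5.

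L1 exceeded L18 by 4.05 for *Ccrd_005993*, a lipase-domain gene at the start of scaffold 736, by 3.72 for *Ccrd_006307* on scaffold 198 and by 3.03 for *Ccrd_006073* on scaffold 74, which encodes pyruvate kinase, the enzyme of the last step of glycolysis. *Ccrd_006073* was also higher in L1 than in L24, by 2.61. Smaller differences of L1 over L18 were 2.58 for the ubiquinol oxidase gene *Ccrd_006500*, 2.24 for the acyltransferase gene *Ccrd_005945*, 1.96 for *Ccrd_006330* and 1.78 for *Ccrd_006612*. L24 exceeded L18 by 4.01 for *Ccrd_006432*, by 3.05 for *Ccrd_006500*, by 1.58 for *Ccrd_006612* and by 1.31 for *Ccrd_006121*.

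In the other direction L18 was the higher line. *Ccrd_006275* differed by -1.96 in L1 against L18 and by -2.41 in L24 against L18, and *Ccrd_006221* by -2.83 in L24 against L18. For *Ccrd_006268* no fold is given, because L24 had no counts. It had 0, 2.89 and 3.76 normalized counts in L1, 796, 1016 and 354 in L18 and 0, 0 and 0 in L24, against 222, 188 and 226 in WT.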

How the results depend on the processing

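The medians of the run and of its segments stayed above 0 in every line under the alternatives tried, except that the first segment was below 0 in every line when the border was set at *Ccrd_005976*. With only genes at 5 or more on the log2 CPM scale, the run median of L1 was 0.292, the first segment was at 0.189 in L1 and 0.127 in L24, the second at 0.322 in L1, and the difference of the segments was 0.132 in L1 and 0.201 in L24. With every tested member the first segment was at 0.104 in L18. With the deposited FPKM, where the median of all genes lay 0.065, 0.057 and 0.105 above 0 in L1, L18 and L24, the run was at 0.425, 0.270 and 0.424, the first segment at 0.374, 0.219 and 0.331, and the second at 0.433, 0.277 and 0.458. Relative to all genes the run was then at 0.36, 0.213 and 0.319, against 0.375, 0.219 and 0.324 with TMM.

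Alternatives chosen after seeing the data set the first 81 identifiers apart. Without them the run median of L1 was 0.371, and 31 members were called lower in L18 and 44 in L24. With the border at *Ccrd_005976* the segments differed by 0.641 in L1, 1.10 in L18 and 1.24 in L24.

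Leaving out single replicates gave ranges of 0.020 to 0.088 for the difference of the segments in L1, 0.025 to 0.103 in L18 and 0.094 to 0.162 in L24, of 0.124 to 0.188 for the first segment in L18, 66 to 118 members called higher in L18 than in WT, 47 to 78 higher in L1 than in L24, 52 to 87 below the running median in L1 and 40 to 68 in L18. Other counts stayed within 1.5 times their value. Of 18 same-numbered pairs of samples, 7 correlated above 0.1 (-0.417 to 0.551), among them all 3 pairs of L24 with WT (0.551, 0.199 and 0.249) and in no other comparison all pairs. With the replicate as a block, 190 members were called higher and 65 lower in L24 than in WT, against 200 and 67 without it, and no call of a named gene in L24 was lost. The block gave 222 higher in L1 and 98 in L18, where the numbers did not pair the samples.

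Of 142 calls against WT for 56 named genes, 114 held under all 22 alternatives, 28 were lost in at least 1, and none changed direction. Fold changes that changed sign were not called. *Ccrd_005945* in L24 was at -0.001 with DESeq2 or its size factors, at -0.018 with the block and from -0.146 to 0.207 without single replicates. *Ccrd_006074* in L24 was at 0.178 and 0.031 with limma and ranged from -0.601 to 0.202, and *Ccrd_006182* in L24 was at 0.09 with limma. Without single replicates *Ccrd_006221* in L1 ranged from -0.036 to 0.63, *Ccrd_006103* in L18 from -0.152 to 0.133, *Ccrd_006253* in L1 from -0.469 to 0.068, *Ccrd_006052* in L24 from -0.081 to 0.312, *Ccrd_006432* in L1 from -0.092 to 0.177, being 0.152 without WT replicate 3, and *Ccrd_006057* in L18 from -0.067 to 0.292. The causes were not tested. At this depth 205 members did not reach the test, so nothing is known of their difference.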

Other observations

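Small gene families among the members, known mostly from genes that the study had called in L1, were also counted by edgeR's calls, beside 19.3%, 12.5% and 19.3% of all genes tested that were called higher in L1, L18 and L24. All 3 protein kinase genes were called higher in L1, with 1 in L18 and 2 in L24 and none lower. Of 5 zinc finger or RING genes, 4 were called higher in L1, none in L18 and 3 in L24, at medians of 1.43, 0.69 and 1.19, against 0.021, 0.0080 and 0.011 over all genes tested. Of 3 genes with DYW or pentatricopeptide domains, which act in RNA processing of plant organelles, 2 were called higher in L1, 1 in L18, and 2 again in L24. Of 2 pectin acetylesterase genes, 1 was called higher in L1 and none in L18 or L24. *Ccrd_006305* (kinase), *Ccrd_005949* (pentatricopeptide) and *Ccrd_006501* (pectin acetylesterase) were at or under 3 counts in every WT replicate and could be tested only because a line was higher, with the highest mean in L1. The order of the lines in these counts therefore follows in part from the filter and the list, and nothing is read from it.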
